A study of Mus musculus with 4 samples.

Results

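The values of 8 genes, the pre-B receptor genes Vpreb1, Igll1, Cd79a and Cd79b, its signalling linker Blnk and the B-lineage transcription genes Ebf1, Pax5 and Pou2af1, were examined in RNA-seq libraries of hematopoietic stem cells (HSC) and common lymphoid progenitors (CLP). The members were taken by gene symbol, 8 genes beside the 12417 genes kept for the whole series. Of these, 7 had a row in each CLP library, 3 in GRK6-/- HSC and 1 in WT HSC, and Pax5 had no row in any library. The genes were chosen by these same FPKM values, with earlier results known, so their levels and fold changes are a description and carry no test.

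There were 4 libraries, HSC and CLP of each genotype (WT or GRK6-/-), from the bone marrow of C57BL/6 mice. GRK6-/- mice lack the G protein-coupled receptor kinase GRK6 in every cell, through deletion of exons that its splice variants share, and the WT mice were their littermates. HSC were sorted as Lin-c-kit+sca-1+ cells, and CLP as cells of that gate that also carried Il-7Ra, the interleukin 7 receptor chain. Each library held the pooled cDNA of 13 to 15 single cells from 3 to 4 mice, each cell amplified on its own by 20 and 10 cycles of PCR. No group had a replicate. Differences between libraries therefore could not be set against a spread between mice, and no p-value is given.

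Developing B cells make the immunoglobulin heavy chain before the light chain. In between, the heavy chain is held at the surface by a surrogate light chain of VpreB (Vpreb1) and lambda 5 (Igll1), and this pre-B receptor signals through Ig alpha (Cd79a), Ig beta (Cd79b) and the linker BLNK. EBF1 and PAX5 are transcription factors that specify and commit cells to the B lineage and act on several of these genes, and Pou2af1 encodes OCA-B, a coactivator of octamer-binding factors. In a normal marrow the surrogate light chain is characteristic of pro-B and early pre-B cells, downstream of the CLP.

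The upstream sequences of Vpreb1, Igll1 and Blnk are shown because the surrogate light chain genes had the largest ratios between genotypes in CLP and Blnk had the smallest. For Vpreb1 this rank holds for its own deposited value only, since the log2 ratio was 3.83 alone and 1.52 with its near-identical copy Vpreb2 added, below that of Ebf1 at 1.68. Each is the stretch of 250 bases before the RefSeq start (GRCm38.p6 table, matched at a single place in mm9), 5′ to 3′ on the gene's strand, here the minus strand for all. The mm9 positions are chr16:16869349-16869598 for Vpreb1, chr16:16864079-16864328 for Igll1 and chr19:41068712-41068961 for Blnk. Those of Vpreb1 and Igll1 lie directly upstream of the deposited spans. The Blnk stretch lies inside the deposited span, whose start on the minus strand is at 41069025. For Blnk the RefSeq start used here thus differs from the deposited start. Capitals mark 3 motifs, searched on both strands. The E-box was CAGGTG, which reads as CACCTG from the other strand. The EBF core was CCCNNGGG, the same from both strands. The octamer was ATGCAAAT, which reads as ATTTGCAT from the other strand.
Vpreb1: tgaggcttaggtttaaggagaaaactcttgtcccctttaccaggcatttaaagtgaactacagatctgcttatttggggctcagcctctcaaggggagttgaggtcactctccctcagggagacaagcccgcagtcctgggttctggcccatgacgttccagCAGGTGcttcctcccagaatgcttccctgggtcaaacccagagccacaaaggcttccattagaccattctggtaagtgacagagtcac
Igll1: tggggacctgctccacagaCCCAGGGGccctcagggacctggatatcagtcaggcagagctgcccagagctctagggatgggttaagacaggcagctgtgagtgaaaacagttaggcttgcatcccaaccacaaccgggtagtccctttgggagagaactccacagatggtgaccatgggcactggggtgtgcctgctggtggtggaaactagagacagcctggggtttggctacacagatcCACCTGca
Blnk: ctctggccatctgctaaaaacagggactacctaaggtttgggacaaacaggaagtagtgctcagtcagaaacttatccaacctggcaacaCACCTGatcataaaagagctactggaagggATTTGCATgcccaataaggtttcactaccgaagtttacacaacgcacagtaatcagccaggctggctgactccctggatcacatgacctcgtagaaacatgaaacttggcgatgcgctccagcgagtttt

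The E-box letters were present in the stretches of Vpreb1, Igll1, Cd79a and Blnk, at 88, 8, 154 and 160 bases before the RefSeq start. They were in 4 of 8 member promoters, with 7 of the 8 genes matched and Ebf1 holding more than one start, and in 17.2% of all 32851 promoters. The EBF core was found in Igll1 alone of the members, as CCCAGGGG 231 bases before the start, and in 11.8% of all promoters. The octamer was found in Blnk alone, 130 bases before the RefSeq start, and in 1.6% of all promoters. Both Blnk matches lie inside the deposited span of the gene. These are matches of letters in a window, and binding was not measured.

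The libraries were checked against the labels first. Grk6 had 42.7 FPKM in HSC of WT and 89.4 in HSC of GRK6-/-, and 26.9 and 57.6 in the CLP of these genotypes, so the libraries labelled as knockout had the higher level in both populations. The FPKM is a single value for the whole gene and does not separate the deleted exons, so it is no check of the genotype, and the names GRK6-/- HSC and GRK6-/- CLP mean the libraries so labelled throughout. The CLP markers, taken as a sum, set the populations apart, but the stem cell markers did not. Stem cell markers summed to 344.5 and 475.1 FPKM in the HSC libraries of WT and GRK6-/-, and to 337.5 and 493.1 in the CLP libraries. Il7r, the chain used for the CLP gate, had 0 and 1.08 FPKM in the HSC libraries of WT and GRK6-/- and 120.1 and 75.2 in the CLP libraries. Dntt, the terminal transferase of lymphoid progenitors, had 113.8 and 92.3 FPKM in HSC and 931.3 and 562.1 in CLP. Dntt made up most of the CLP marker sums in CLP, 1319 FPKM in WT and 943.4 in GRK6-/-. Of 7 CLP markers with a value, 5 were at least 2-fold higher in CLP than HSC in each genotype. This held for 21.8% of all genes in WT and 22.3% in GRK6-/-. Notch1 was lower in CLP, at 0 and 2.71 FPKM against 5.54 and 3.73 in HSC (WT and GRK6-/-). Kit was lower in WT CLP than in WT HSC, and Rag2 was listed at 0 in GRK6-/- CLP. Depth, estimated from the steps between the lowest values, was between 2.79e+06 and 4.36e+06 fragments per library. This is a scale worked back from the FPKM values, not a count of reads. It lies below the read number that the study gives for each lineage. Intervals given below are exact 95% Poisson intervals on the estimated fragments, and cover counting error but not amplification, the pooling of few cells or variation between mice.

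**Figure D1:**
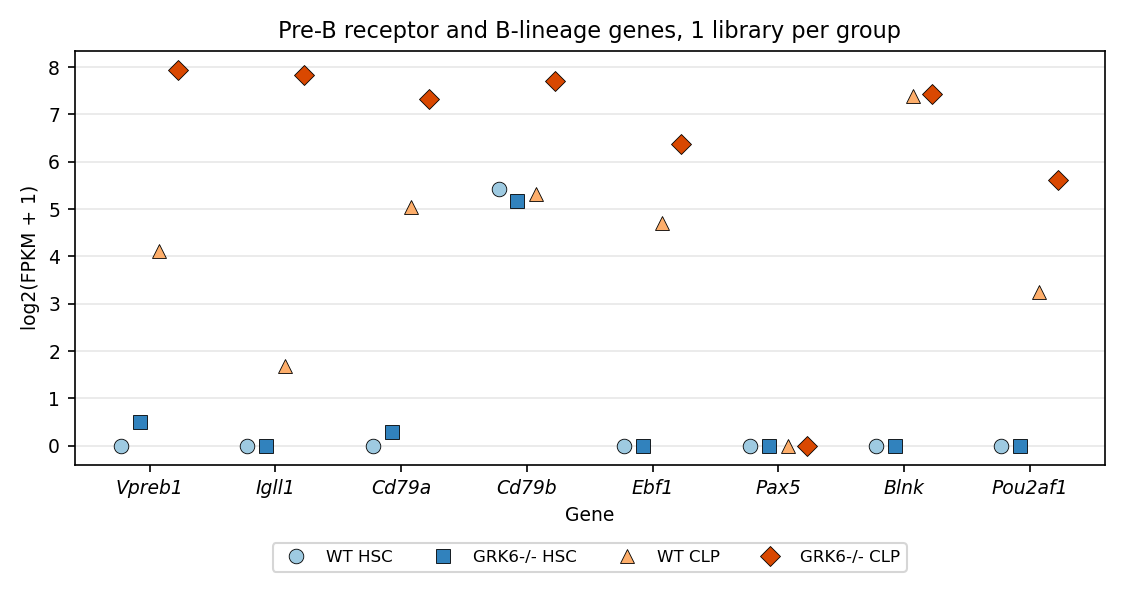
FPKM of the 8 genes on a log2(FPKM + 1) scale (vertical axis) by gene (horizontal axis), with 1 point per library and no error bars, since each group had 1 library. The GRK6-/- CLP point is the highest for every gene except Pax5, which lies at 0 in all libraries, and only Cd79b has HSC points near the WT CLP point.

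Of the members with a row, Igll1 had the lowest level in WT CLP and Vpreb1 the highest in GRK6-/- CLP. Vpreb1 (Entrez 22362, mm9 chr16:16868494-16869348, minus strand) was listed at 0 in WT HSC and had 0.423 FPKM in GRK6-/- HSC. In CLP it had 16.4 FPKM in WT and 246.0 in GRK6-/-. The HSC value corresponded to about 1 fragment, and those of CLP to about 55 and 526 fragments. The GRK6-/- CLP library had a 15.0-fold higher level than WT CLP, and the intervals of 12.4 to 21.4 and 225.5 to 268.1 FPKM did not overlap. In a pool of cells, more cells that express a gene and more RNA per cell cannot be told apart.

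Igll1 (Entrez 16136, mm9 chr16:16860764-16864078, minus strand), the neighbour of Vpreb1 on chromosome 16, was listed at 0 in both HSC libraries and had 2.20 FPKM in WT CLP and 226.5 in GRK6-/- CLP. This was a 103.0-fold higher level in GRK6-/- CLP, the largest ratio of the members. The WT CLP level rested on about 7 fragments (0.889 to 4.56 FPKM), so the ratio is imprecise, while GRK6-/- CLP had about 459 (206.3 to 248.3 FPKM). Igll1 thus lay above 18.4% of the genes with a value in WT CLP and above 96.7% in GRK6-/- CLP.

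Vpreb1 has a near-identical copy on the same chromosome, Vpreb2, which encodes a second VpreB chain. Their coding sequences in mm9 have 429 bases each and differ at 9, an identity of 97.9%. The stretch from base 270 to base 397, counted from 1 at the first base of the start codon, is shown because the copies differed in opposite directions between the CLP libraries, and capitals mark the 6 differences in it.
Vpreb1: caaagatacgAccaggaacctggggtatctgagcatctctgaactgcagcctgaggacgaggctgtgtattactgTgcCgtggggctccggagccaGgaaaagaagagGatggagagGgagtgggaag
Vpreb2: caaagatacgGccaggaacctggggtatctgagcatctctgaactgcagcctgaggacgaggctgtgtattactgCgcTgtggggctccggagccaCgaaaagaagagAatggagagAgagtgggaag

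Vpreb2 was listed at 0 in both HSC libraries and had 70.6 FPKM in WT CLP and 4.75 in GRK6-/- CLP, a 14.9-fold lower level in GRK6-/-. The transcripts of the copies share 97.4% of their 766 bases, and 14.5% of all stretches of 100 bases are the same in both. The way in which fragments that fit both copies were shared out is not given in the sources used here, and the level of each copy is uncertain for this reason. The deposited span of Vpreb2 also differed between libraries, chr16:17980325-17981173 in WT CLP and chr16:17980658-17981173 in GRK6-/- CLP. Their sum depends less on how fragments were shared between them. It was 87.0 FPKM in WT CLP and 250.7 in GRK6-/- CLP, a 2.88-fold higher level in GRK6-/- CLP, against 15.0-fold for Vpreb1 alone. Vpreb1 made up 18.9% of the sum in WT CLP and 98.1% in GRK6-/- CLP. The ratio of VpreB to Igll1, the partners in the surrogate light chain, was 39.6 in CLP of WT and 1.11 in those of GRK6-/- when the sum was used, and 7.47 and 1.09 for Vpreb1 alone. Vpreb3, a related gene whose product acts within B-lineage cells, was listed at 0 in HSC and had 124.0 FPKM in WT CLP and 593.5 in GRK6-/- CLP, 4.79-fold higher in GRK6-/- CLP.

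**Figure D2:**
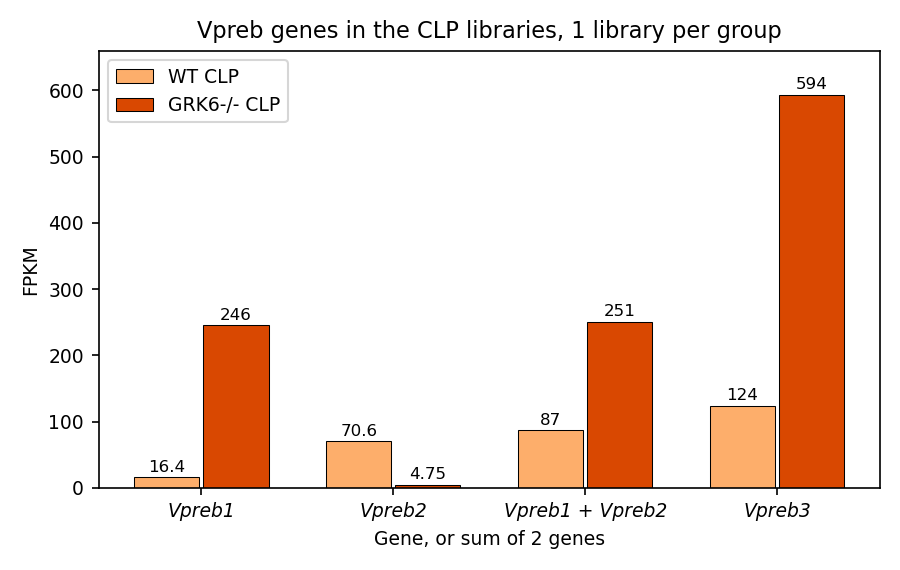
FPKM (vertical axis, linear from 0) of Vpreb1, Vpreb2, their sum and Vpreb3 (horizontal axis) in WT CLP (light bars) and GRK6-/- CLP (dark bars), without error bars since there was 1 library per bar. Vpreb1 is higher and Vpreb2 lower in GRK6-/- CLP, and their sum rises from 87.0 to 250.7 FPKM.

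The signalling chains of the receptor were both higher in GRK6-/- CLP, by similar factors, but differed in HSC. Cd79a (Entrez 12518, mm9 chr7:25682530-25687216, plus strand) was listed at 0 in WT HSC and had 0.216 FPKM in GRK6-/- HSC, about 1 fragment. In CLP it had 32.1 FPKM in WT and 159.9 in GRK6-/-. The ratio in CLP was 4.98, with intervals of 27.9 to 36.8 FPKM in WT and 147.8 to 172.7 in GRK6-/-.

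Cd79b (Entrez 15985, mm9 chr11:106172655-106175843, minus strand) had 41.9 FPKM in the HSC of WT and 34.8 in those of GRK6-/-, with 39.1 and 206.8 in the CLP of each. It was the only member with more than about 1 fragment in an HSC library. The levels in WT HSC, GRK6-/- HSC and WT CLP had overlapping intervals (35.8 to 48.6, 30.0 to 40.1 and 34.4 to 44.3 FPKM), and GRK6-/- CLP stood above them at 193.0 to 221.5. Cd79b was 5.29-fold higher in GRK6-/- CLP than in WT CLP. The ratio of Cd79b to Cd79a was 1.22 in CLP of WT and 1.29 in those of GRK6-/-, so the partner chains kept nearly the same proportion while both levels differed about as much.

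Blnk (Entrez 17060, mm9 chr19:41003417-41069025, minus strand), the linker that carries the receptor signal from the kinase SYK to its targets, was the exception in CLP. It was listed at 0 in both HSC libraries and had 167.4 FPKM in WT CLP and 171.5 in GRK6-/- CLP. The intervals of 159.2 to 176.1 and 161.0 to 182.4 FPKM overlapped, and the ratio was 1.02. Blnk was the highest member in WT CLP, 76.2-fold above Igll1, and only the fourth in GRK6-/- CLP.

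Of the transcription genes, Ebf1 (Entrez 13591, mm9 chr11:44431636-44818705, plus strand) was listed at 0 in both HSC libraries and had 24.99 FPKM in WT CLP and 82.0 in GRK6-/- CLP. The ratio was 3.28, the smallest among the members that passed 2-fold, with intervals of 23.1 to 27.0 and 77.8 to 86.5 FPKM. Pou2af1 (Entrez 18985, mm9 chr9:51021795-51048184, plus strand) was also listed at 0 in both HSC libraries, and had 8.50 FPKM in WT CLP and 48.4 in GRK6-/- CLP, a 5.69-fold higher level. Its intervals were 6.87 to 10.4 and 43.4 to 53.7 FPKM.

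Pax5 (Entrez 18507, mm9 chr4:44544017-44724318, minus strand in the annotation) was listed at 0 in all 4 libraries, and 0 rows under another symbol overlapped its span. No reason for an absent row is given in the files.

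By level, the order in WT CLP was Blnk, Cd79b, Cd79a, Ebf1, Vpreb1, Pou2af1 and Igll1. The intervals of Cd79b and Cd79a overlapped and those of the other neighbours in that order did not, and the span from the first to the last was 76.2-fold. In GRK6-/- CLP it was Vpreb1, Igll1, Cd79b, Blnk, Cd79a, Ebf1 and Pou2af1, and the span was 5.09-fold. There the intervals of Vpreb1 and Igll1, of Igll1 and Cd79b, and of Blnk and Cd79a overlapped. The members summed to 290.7 FPKM in WT CLP and 1141 in GRK6-/- CLP, beside 41.9 and 35.5 in the HSC of WT and GRK6-/-.

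A gene was counted as past 2-fold where the log2 ratio of FPKM + 1 was at least 1 in size. In CLP, 6 of the 7 members with a value were past it toward higher levels in GRK6-/- and 0 toward lower levels, beside 26.6% of the 11191 genes with a value that were higher and 23.4% that were lower. These values chose the members, and nothing is read from that count. On this scale the ratios were 6.15 for Igll1, 3.83 for Vpreb1, 2.38 for Pou2af1, 2.37 for Cd79b, 2.28 for Cd79a, 1.68 for Ebf1 and 0.03 for Blnk. The median of the 7 was 2.37, beside 0.05 over all genes.

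**Figure D3:**
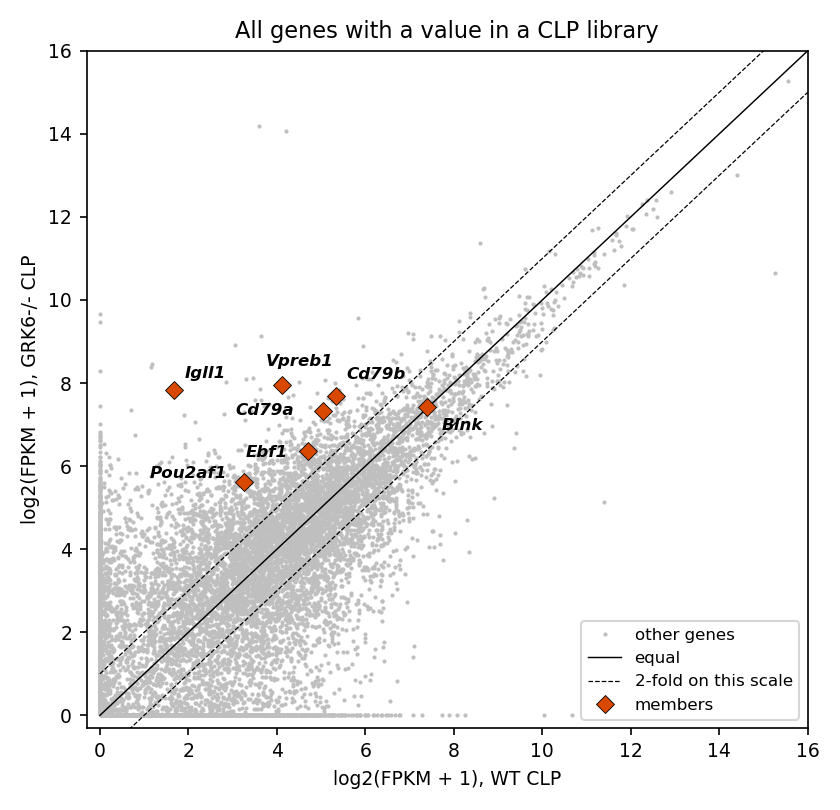
Each point is a gene, with log2(FPKM + 1) in WT CLP on the horizontal axis and in GRK6-/- CLP on the vertical axis, and diamonds mark the members. Igll1, Vpreb1, Pou2af1, Cd79b, Cd79a and Ebf1 lie above the upper 2-fold line, in a cloud where 26.6% of all genes do, and Blnk lies on the line of equal levels.

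In HSC, 0 of the 3 members with a value passed 2-fold between genotypes, beside 19.3% of the 11624 genes that were higher and 18.0% that were lower in GRK6-/-. Cd79b, the only one above about 1 fragment, was 1.20-fold lower in GRK6-/- HSC, a log2 ratio of -0.26. Its log2 ratio in CLP exceeded that in HSC by 2.64, a difference that could not be tested with 1 library per group.

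Between populations, 6 of 7 members were past 2-fold toward CLP in WT, where 21.8% of 11202 genes were, and 7 of 7 in GRK6-/-, where 22.3% of 11708 genes were. The exception in WT was Cd79b, at 0.933 of its HSC level. In GRK6-/- it was 5.94-fold higher in CLP than in HSC. Igll1, Ebf1, Blnk and Pou2af1 were listed at 0 in both HSC libraries and above 0 in both CLP libraries, a pattern shared by 137 of the 12417 genes, or 1.10%.

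Other genes of the pathway were taken from lists by role, so as to place the members among them. Of 23 further B-lineage surface and receptor genes, 16 had a value in CLP, of which 7 were past 2-fold higher and 7 lower in GRK6-/-, with a median log2 ratio of -0.56. Over all genes with a value in CLP, 26.6% were higher and 23.4% lower. Cd74, the invariant chain of MHC class II, had 7.26 FPKM in WT CLP and 482.8 in GRK6-/- CLP, a 66.5-fold higher level, beside 6.92 and 0.475 in the HSC of WT and GRK6-/-. Fcrla, an Fc receptor-like protein of B cells, was listed at 0 in all libraries but GRK6-/- CLP, where it had 45.4 FPKM. Fcgr2b, the inhibitory IgG receptor, was listed at 0 in all libraries but WT CLP, where it had 23.8 FPKM. The heavy chain gene Ighm and the mature B-cell genes Ms4a1, Cd22, Fcer2a and Faim3 had no row and were listed at 0 in all 4 libraries. Among the genes kept, no immunoglobulin heavy or light chain gene had a row under an Igh, Igk or Igl symbol, the surrogate chain gene Igll1 aside. Absent RNA and an absent entry therefore cannot be told apart.

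Of 26 genes that signal below the pre-B receptor, 25 had a value in CLP, 6 past 2-fold higher and 6 lower in GRK6-/-, with a median log2 ratio of -0.12. These counts are near the shares over all genes, 26.6% higher and 23.4% lower. Syk, the kinase recruited by Ig alpha and Ig beta and listed in the files as Sykb, had 12.2 FPKM in WT CLP and 57.5 in GRK6-/- CLP, 4.73-fold higher, and 53.6 and 7.72 in the HSC of WT and GRK6-/-. Plcg2, the phospholipase that BLNK brings to the receptor, had 23.4, 109.5, 26.3 and 14.0 FPKM in the same order, 4.69-fold higher in GRK6-/- CLP. Itpr1, the calcium channel that acts below PLC gamma, had 7.004, 62.2, 3.25 and 1.93 FPKM, 8.88-fold higher. The genes named were picked for their large ratios, and as many genes of this list were past 2-fold lower as higher. Those that were lower had log2 ratios under 2 in size and are not named. Blnk, which links Syk and Plcg2, did not differ beyond its counting interval.

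Of 23 B-lineage and lymphoid transcription factors, 20 had a value in CLP, 6 past 2-fold higher and 4 lower, with a median log2 ratio of 0.21. These counts too are near the shares over all genes, 26.6% higher and 23.4% lower. Id2 and Id3, inhibitors of E proteins, were 33.2-fold and 6.10-fold higher in GRK6-/- CLP, at 2.77 against 92.2 FPKM and 12.3 against 75.2. Lef1, a factor of the Wnt pathway that pro-B cells express, was listed at 0 in all libraries but GRK6-/- CLP, where it had 18.6 FPKM. Pou2f1, the octamer factor OCT1 with which OCA-B acts, was lower instead, at 29.0 FPKM in WT CLP and 4.38 in GRK6-/- CLP, 6.61-fold lower.

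Of the genes of V(D)J recombination, Rag1 and Rag2, whose products cut the DNA, had lower levels in GRK6-/- CLP. The other genes of this list went in both directions. Rag2 had 94.5 FPKM in WT CLP and was listed at 0 in GRK6-/- CLP, and Rag1 had 23.0 and 2.47 FPKM, 9.34-fold lower in GRK6-/- CLP. Of the 6 genes on this list 2 were past 2-fold higher and 3 lower, with a median log2 ratio of -1.05. The shares over all genes were 26.6% higher and 23.4% lower. In HSC between 0 and 3 genes of each of these lists were past 2-fold higher and between 2 and 5 lower, with medians from -0.54 to 0.45. Over all genes in HSC, 19.3% were higher and 18.0% lower.

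**Figure D4:**
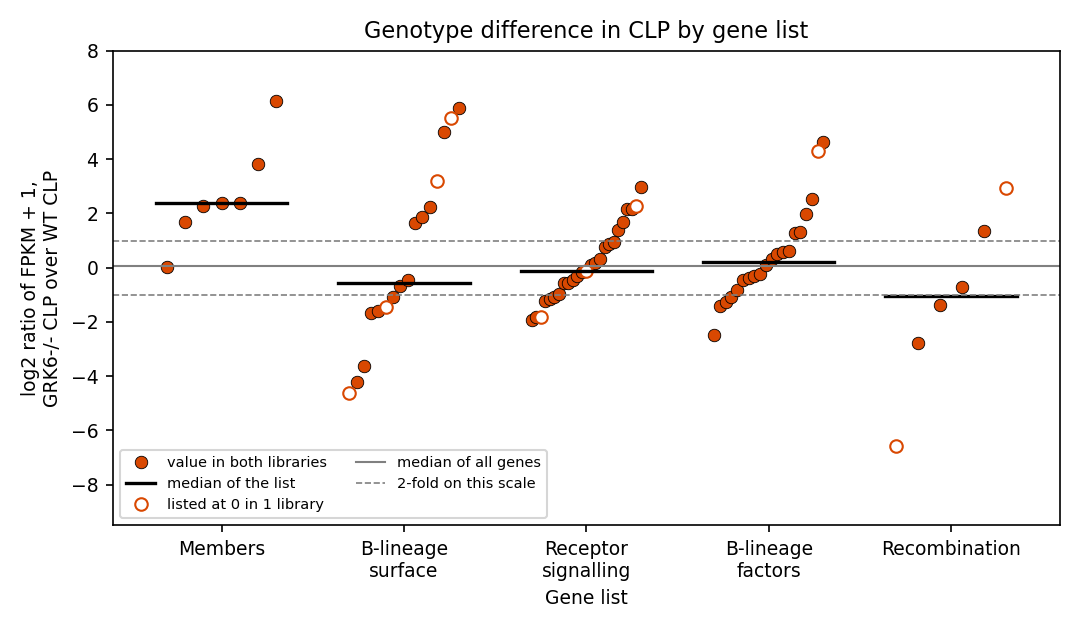
Log2 ratio of FPKM + 1 in GRK6-/- CLP over WT CLP (vertical axis) for each gene with a value in at least 1 CLP library, by list (horizontal axis). Filled points have a value in both libraries, open points are listed at 0 in 1 of them, bars are medians, and the lists other than the members lie on both sides of the median of all genes, at 0.05.

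Among 7713 genes compared over the 4 libraries, the 5 with the profile nearest to the mean of Vpreb1 and Igll1 (Euclidean distance of centred log2(FPKM + 1) values) were Siglech, H2-Eb1, Lta, Adam8 and Ifi27l2a, at distances of 0.472, 0.490, 1.05, 1.61 and 1.62. Siglech, a lectin of plasmacytoid dendritic cells, had 10.0 FPKM in WT CLP and 277.9 in GRK6-/- CLP. H2-Eb1, an MHC class II chain, had 8.85 and 275.1, and Lta, the cytokine lymphotoxin alpha, had 11.5 and 564.2. Of the other members, Pou2af1 came eighth, Cd79a ninth and Ebf1 twenty-first in this order, while Blnk and Cd79b came at ranks 291 and 397.

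Markers of other cell types also differed between the CLP libraries. Their counts past 2-fold stand beside 26.6% of all genes that were higher in GRK6-/- CLP and 23.4% that were lower. Summed over 10 mature B-cell markers the level was 11.7 FPKM in WT CLP and 74.3 in GRK6-/- CLP, beside 0.397 and 0.368 in the HSC of WT and GRK6-/-, with 2 of 3 measured markers past 2-fold higher in GRK6-/- CLP, and Ms4a1, Cd22, Fcer2a and Ighd among those listed at 0 throughout. Those of plasmacytoid dendritic cells, which share several genes with B-lineage progenitors, summed to 335.7, 1009, 9.10 and 16.1 FPKM in the same order, with 4 of 5 past 2-fold higher. Most of the WT CLP sum was Cox6a2, which had 314.1 FPKM there and 287.6 in GRK6-/- CLP and did not pass 2-fold. The largest difference was that of the erythroid markers.

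Erythroid markers summed to 31.0 FPKM in WT CLP and 36262 in GRK6-/- CLP, beside 47.8 and 820.6 in the HSC of WT and GRK6-/-, with 10 of 10 past 2-fold higher in GRK6-/- CLP. Hemoglobin genes led them, with Hba-a2 at 17.4 and 17220 FPKM and Beta-s, which lies at the beta globin genes, at 11.1 and 18659 FPKM in the CLP libraries. T-cell markers (97.2 and 116.0 FPKM, 3 of 8 higher, Cd8a at 0) and natural killer cell markers (248.3 and 451.2 FPKM, 1 of 2 higher, Ncr1, Eomes, Gzma and Prf1 at 0) differed less in their CLP sums, and those of myeloid cells were lower in GRK6-/- CLP (9413 and 7866 FPKM, 2 of 12 higher and 3 lower). Stem cell markers summed to 337.5 FPKM in WT CLP and 493.1 in GRK6-/- CLP, beside 344.5 and 475.1 in the HSC of WT and GRK6-/-. CLP markers summed to 1319 and 943.4 in the CLP of these genotypes, beside 227.2 and 155.6 in HSC. The part of these markers in the member levels was not tested.

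**Figure D5:**
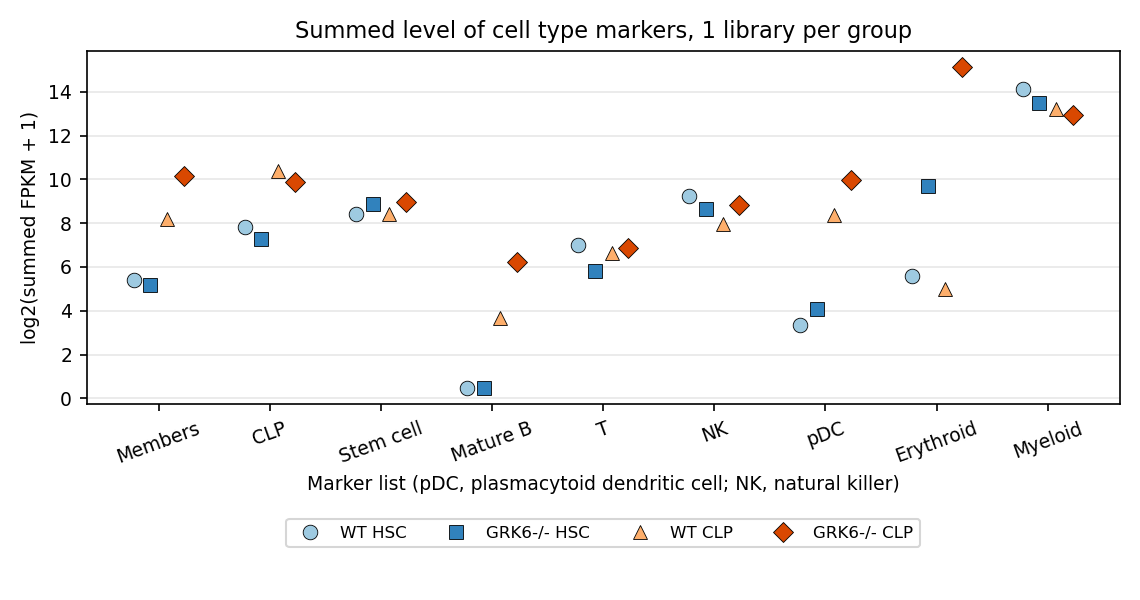
Summed FPKM of the members and of 8 marker lists, as log2 of the sum + 1 (vertical axis), by list (horizontal axis), with 1 point per library. The members, stem cell, mature B, plasmacytoid dendritic cell and erythroid sums are highest in GRK6-/- CLP, while CLP markers are highest in WT CLP. The stem cell sum is 493.1 FPKM in GRK6-/- CLP, close to 475.1 in GRK6-/- HSC. The erythroid sum is 36262 FPKM in GRK6-/- CLP against 31.0 in WT CLP.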

How the data were processed

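RNA-seq values of 4 libraries were used, 1 for each population and genotype. The authors deposited FPKM values (fragments scaled by transcript length and by mapped fragments) for each gene of a library, and no counts. The submitters' processing notes name TopHat 1.4.0 and mm9. The study's methods name the Tuxedo suite, to which TopHat belongs, and the strand setting is not given in the sources used here.

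Rows with the same symbol were summed, and a gene without a row was set to 0. Of 12750 gene symbols and joint names, 333 were left out, which were the joint names of rows shared by several genes and the genes in them. Listed genes were also looked up under other symbols and at their mm9 position, which placed Syk at Sykb and Hbb-b1 at Beta-s. Ratios are log2 of FPKM + 1, which understates the change of low genes, and past 2-fold means a size of at least 1. With 1 library per group no test was made. Deposited locus starts were read as counted from 0 and are written from 1. Fragments were estimated as FPKM times the length of the longest coding transcript (GENCODE vM1) times depth. Depth came from the steps of FPKM values under 0.3. It is an estimate, with 74.4% to 82.4% of such values within 10% of 1, 2 or 3 steps. On simulated data 200 of 200 changed genes among 6814 and 3 of 3 depths were recovered. The changed genes were simulated without noise, so their recovery was fixed in advance and checks only the calculation. The depths were simulated with counting noise only.

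The members and lists were chosen with earlier results of these data known. Besides the members, the genes named were, from each list, at most 4 with an FPKM of at least 10 and a log2 ratio of at least 2 in size in CLP, the 5 nearest profiles, and from each marker list the 2 highest genes and those at 0. Some genes that this rule would name are not reported here. Grk6, Vpreb2, Vpreb3, Il7r and Dntt were named outside this rule, after their values were seen. Sequences came from RefSeq promoters (GRCm38.p6, 7 of 8 members matched) and the mm9 genome. Alternatives were a pseudocount of 0.1, a filter at 1 FPKM, a median log2 ratio of 0, equal library sums, the highest row per symbol, a log2 threshold of 2 and the sum of Vpreb1 and Vpreb2. The scripts ran in Python 3.11.15 with scipy 1.17.1, matplotlib 3.10.9, pandas 2.3.3 and numpy 2.4.6.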

Additional observations from a re-analysis of the deposited data

Results flagged for a closer look

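The log2 ratio of FPKM + 1 in GRK6-/- over WT had opposite signs in CLP and HSC for Cd79b (2.37 in CLP and -0.26 in HSC), Cd74 (5.87 and -2.43), Itpr1 (2.98 and -0.54), Plcg2 (2.18 and -0.87) and Syk (2.15 and -2.64). Each rests on 1 library per group, and a test of HSC against CLP could not be made. For Cd79b the HSC levels had overlapping counting intervals.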

How the results depend on the processing

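Of 84 counts of genes past 2-fold under an alternative setting, 75 stayed within 1.5 times the value reported and 9 did not, and of 72 log2 ratios of members 71 stayed within the counting interval of the value reported and 1 did not. No ratio that passed 2-fold changed sign. With a pseudocount of 0.1 in HSC, the members past 2-fold came to 2 in place of 0 and the surface genes to 8 in place of 5. With a log2 threshold of 2, the genes past it in CLP came to 8 surface genes in place of 14, 4 signalling genes in place of 12, 4 transcription factors in place of 10 and 3 recombination genes in place of 5. In HSC they came to 2 signalling genes in place of 8, 1 transcription factor in place of 5 and 0 recombination genes in place of 2. The log2 ratio of Vpreb1 in CLP was 1.52 when Vpreb2 was added to it, an alternative chosen after seeing the data. Over all settings the CLP ratios were 6.10 to 6.62 for Igll1, 2.23 to 2.40 for Cd79a, 2.32 to 2.49 for Cd79b, 1.62 to 1.80 for Ebf1, 2.33 to 2.53 for Pou2af1 and -0.02 to 0.14 for Blnk. Setting the library sums equal moved the median of all genes in CLP from 0.05 to 0.14. No paired analysis was possible because each group had 1 library, and for the same reason no replicate could be left out. Low depth limits most the levels of Igll1 in WT CLP and of Vpreb1 and Cd79a in GRK6-/- HSC.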

Other observations

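Genes of MHC class II presentation, looked up after Cd74 and H2-Eb1 had been seen, differed unequally between the CLP libraries. H2-Aa had 1.22 FPKM in WT CLP and 336.4 in GRK6-/- CLP, a 276-fold higher level, H2-Ab1 had 60.4 and 470.5, 7.78-fold higher, and H2-Eb1 was 31.1-fold higher. H2-Eb2, another class II chain, went the other way, with 9.17 FPKM in WT CLP and listed at 0 in GRK6-/- CLP. The loading accessories H2-DMa (189.7 and 183.2 FPKM) and H2-DMb1 (70.7 and 39.4) had no higher level in GRK6-/- CLP. H2-Oa, which modulates loading in B cells, had 14.4 and 43.1 FPKM, and H2-Ob had 52.3 and 35.8. In HSC, H2-Ab1 was lower in GRK6-/-, with 93.2 FPKM in WT and 22.5 in GRK6-/-, H2-Aa was listed at 0 in WT and had 6.70 in GRK6-/-, and H2-Eb1 was listed at 0 in both.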
